A study of Mus musculus with 10 samples.

Results

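Acetylcholine receptor genes were followed across the cell types of the medial prefrontal cortex of mice at the top and at the bottom of a social hierarchy. The set held 9 genes of the 30406 shared by all libraries, taken by symbol: the muscarinic receptor genes Chrm1, Chrm2, Chrm3 and Chrm4, and the nicotinic subunit genes Chrna3, Chrna4, Chrna5, Chrna7 and Chrnb2. All 9 symbols stood in the gene list of every library. The study measured single-cell RNA from the brains of C57BL/6N males older than 2 months. Rank 1 (dominant) and rank 4 (subordinate) mice were told apart by the tube test, in which 1 mouse of a pair backs out of a narrow tube. There were 5 libraries per rank, each made from the pooled prefrontal tissue of 2 to 3 mice for 10x Genomics droplet capture, so no value belongs to a single mouse. Tissue was taken 1 day after the last tube test and digested with papain at 37 °C for 60 min, and the labels name no transgene or drug treatment in either group. Rank was the outcome that the study set against expression, and the libraries, not the cells, were the replicates.

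Acetylcholine reaches the cortex mainly from cholinergic neurons of the basal forebrain, and to a smaller extent from a set of local interneurons that make the peptide Vip. Muscarinic receptors are coupled to G proteins: the products of Chrm1 and Chrm3 act through Gq, which activates phospholipase C and closes Kcnq potassium channels, while those of Chrm2 and Chrm4 act through Gi, which lowers cyclic AMP and opens Kcnj channels. Nicotinic receptors are cation channels built from 5 subunits. In cortex the common forms are channels of Chrna4 and Chrnb2 products, to which the Chrna5 product can be added as an accessory subunit, and channels made of Chrna7 products alone. The form with the Chrna5 product is best known from corticothalamic neurons of layer 6, where it makes the response to acetylcholine larger.

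On GRCm38 with the GENCODE M21 annotation, Chrm1 lies on chromosome 19 (8663789 to 8683587, plus strand), Chrm2 on chromosome 6 (36388084 to 36528414, plus strand), Chrm3 on chromosome 13 (9875486 to 10360847, minus strand) and Chrm4 on chromosome 2 (91927249 to 91928688, plus strand). The gene Chrna4 lies on chromosome 2 (181018380 to 181043546, minus strand), Chrna7 on chromosome 7 (63098692 to 63212569, minus strand) and Chrnb2 on chromosome 3 (89746195 to 89764632, minus strand). Chrna5 (54980880 to 55007779, plus strand) and Chrna3 (55010111 to 55026562, minus strand) face each other on chromosome 9 with 2331 bases between their ends, and Chrnb4, another subunit gene, follows Chrna3 after 1591 bases. The M21 model of Chrm4 is 1440 bases of coding sequence in 1 exon with 0 bases after the coding end, whereas the RefSeq model ends 1147 bases further on. For Chrna5 the RefSeq model ends 3641 bases beyond the M21 model, inside Chrna3 on the other strand. The M21 models of Chrnb2 and Adar overlap on opposite strands. Whether the counting used strand is not given in the sources used here. Levels of different genes were not set against each other, since the counts are not scaled by length, and values of several genes may include reads of a neighbour. In the M21 annotation Chrm1, Chrm2, Chrm3 and Chrnb2 overlap genes on the other strand, and Chrm2, Chrm3 and Chrna7 overlap genes on their own strand.

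The promoters of Chrm2, Chrna4 and Chrna5 are shown because the results below turn on where these genes were high and low. Each run is the 250 bases before a transcript start in RefSeq (GRCm38.p6), read 5′ to 3′ on the gene's strand, with every GC box (GGGCGG, or CCGCCC where it stands on the other strand) in capitals. The start used for Chrna4, at 181039177, lies inside the gene, whose M21 model begins at 181043546 on the minus strand. For Chrna5 RefSeq lists 2 starts, written here as start 1 and start 2.
Chrm2, chr6:36387834-36388083, plus strand: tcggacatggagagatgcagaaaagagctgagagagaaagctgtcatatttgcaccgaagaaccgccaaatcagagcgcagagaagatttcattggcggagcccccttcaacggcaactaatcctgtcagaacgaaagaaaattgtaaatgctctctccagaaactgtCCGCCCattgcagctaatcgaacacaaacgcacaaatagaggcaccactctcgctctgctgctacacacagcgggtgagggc
Chrna4, chr2:181039178-181039427, minus strand: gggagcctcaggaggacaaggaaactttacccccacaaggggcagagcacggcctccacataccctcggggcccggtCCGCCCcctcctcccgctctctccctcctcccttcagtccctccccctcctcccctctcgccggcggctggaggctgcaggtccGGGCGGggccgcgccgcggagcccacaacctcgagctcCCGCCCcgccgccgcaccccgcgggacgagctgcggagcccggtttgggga
Chrna5 start 1, chr9:54980630-54980879, plus strand: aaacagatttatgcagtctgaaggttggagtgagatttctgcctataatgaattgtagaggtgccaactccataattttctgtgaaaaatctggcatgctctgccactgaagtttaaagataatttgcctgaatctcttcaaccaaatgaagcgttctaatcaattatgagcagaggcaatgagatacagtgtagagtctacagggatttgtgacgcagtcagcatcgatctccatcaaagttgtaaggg
Chrna5 start 2, chr9:54981238-54981487, plus strand: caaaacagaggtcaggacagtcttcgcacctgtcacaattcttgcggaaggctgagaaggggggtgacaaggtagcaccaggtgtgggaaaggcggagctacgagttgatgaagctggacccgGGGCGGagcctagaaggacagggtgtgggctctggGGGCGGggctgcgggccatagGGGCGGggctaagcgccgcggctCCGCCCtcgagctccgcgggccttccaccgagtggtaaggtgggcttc
The Chrm2 window held 1 match, the Chrna4 window 3, and the Chrna5 windows 0 at start 1 and 4 at start 2. A match stood in the windows of Chrm4, Chrna3 and Chrna7 as well, and none in those of Chrm3 and Chrnb2. Of all 32851 promoters in the same table, 32.7% held at least 1 match. The GC content of these windows ran from 40% at start 1 of Chrna5 to 74.4% at Chrna4, against a median of 52.4% over all promoters. The table held a promoter for 8 of the 9 genes. A match is a description of the letters in this window and not evidence of binding.

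The libraries held between 4442750 and 29278466 UMIs (unique molecular identifiers, 1 count per captured RNA molecule), and 46285 of 64937 deposited barcodes were kept as cells, between 1445 and 12647 per library. Cells were clustered and named from marker genes without the 9 receptor genes, and each name stands for cells resembling that type. The excitatory types were L2/3 IT, L5 IT, L6 IT (intratelencephalic neurons by cortical layer), L5 PT (pyramidal tract), L5/6 NP (near-projecting) and L6 CT (corticothalamic), and the inhibitory types were named for Lamp5, Vip, Sst and Pvalb. There were 16617 excitatory and 2172 inhibitory neurons, 9085 astrocytes and 3218 oligodendrocyte precursors. Of the neurons, 1420 excitatory and 344 inhibitory cells were given no subtype, and values of both classes include them. A share of 7.18% of the kept cells stayed unnamed, with these neurons counted in it. At most 104 barcodes were shared by any pair of libraries (1.70% of the smaller one). Receptor transcripts were sparse, with 9457 UMIs of Chrm1 over all kept cells, 3221 of Chrna4, 2920 of Chrm3, 1761 of Chrnb2, 1258 of Chrm2, 476 of Chrna5, 237 of Chrna7, 129 of Chrm4 and 24 of Chrna3.

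The libraries fell into 2 sets that stood apart for these genes. Replicates 1 to 3 of both ranks (6 libraries) carry software version 3.1.0 in their file headers and share one gene list, and replicates 4 and 5 (4 libraries) carry version 4.0.0 and share another. Levels are given as CPM, the UMIs of a gene per 1000000 UMIs of that cell type in the library. In excitatory neurons Chrm1 was at 87.0 ± 12.7 CPM (mean ± SD) in the 6 libraries and at 164 ± 7.56 CPM in the 4, with no overlap. Chrm4 was at 0.139 ± 0.172 against 2.84 ± 0.503 CPM, a ratio of 20.5, and Chrna7 at 0.573 ± 0.467 against 4.02 ± 1.27 CPM, a ratio of 7.02, again without overlap. In inhibitory neurons Chrm4 had no UMI in replicates 1 to 3 and 2.65 ± 0.800 CPM in replicates 4 and 5. Levels of Chrm2 and Chrna4 in excitatory neurons did not overlap either, with ratios of 2.22 and 2.05. For Chrnb2 the ratio was 1.18 in excitatory and 1.05 in inhibitory neurons, and the sets overlapped in both. Chrna3 in inhibitory neurons went the other way, at 4.19 ± 4.34 CPM in replicates 1 to 3 and 0.384 ± 0.477 CPM in replicates 4 and 5, on 9 UMIs in all. Both ranks had 3 and 2 libraries in these sets, so rank was balanced over them. What made the sets differ (gene list, cell calling, library preparation) was not tested, and the values below are given by set where the difference matters.

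**Figure D1:**
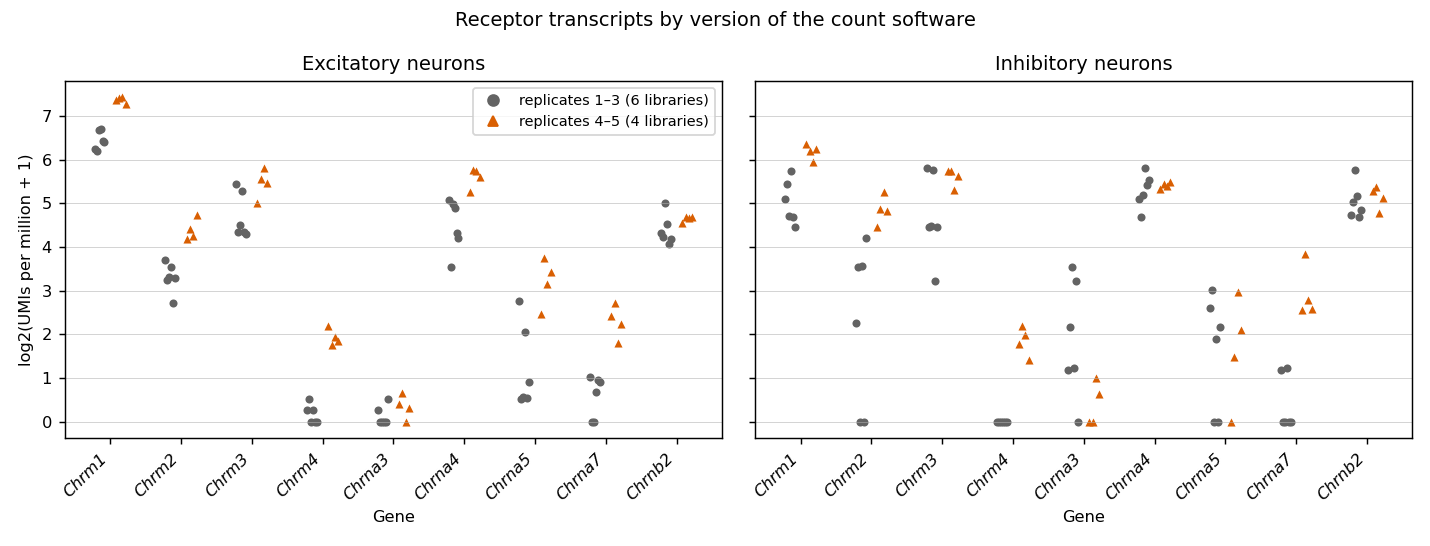
Each point is 1 library's level of a receptor gene, as log2(CPM + 1), in excitatory (left) and inhibitory neurons (right). Circles are the 6 libraries of replicates 1 to 3 and triangles the 4 libraries of replicates 4 and 5. Chrm4 and Chrna7 lie near 0 in the circles and well above it in the triangles, and Chrnb2 lies at about the same height in both.

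Levels were described over the 19 named types present in at least 3 libraries. Chrm1 was high in every excitatory type, Chrm2 in L5/6 NP, Pvalb and L6 IT cells, and Chrm3 in Sst, Vip, L2/3 IT and L6 CT cells. Chrna4 was high in L6 CT and L5/6 NP cells, in Lamp5, Vip and Sst interneurons and in oligodendrocyte precursors. Chrna5 was found mainly in L5/6 NP, L6 CT and Vip cells. Chrnb2 was spread over all neuron types.

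**Figure D2:**
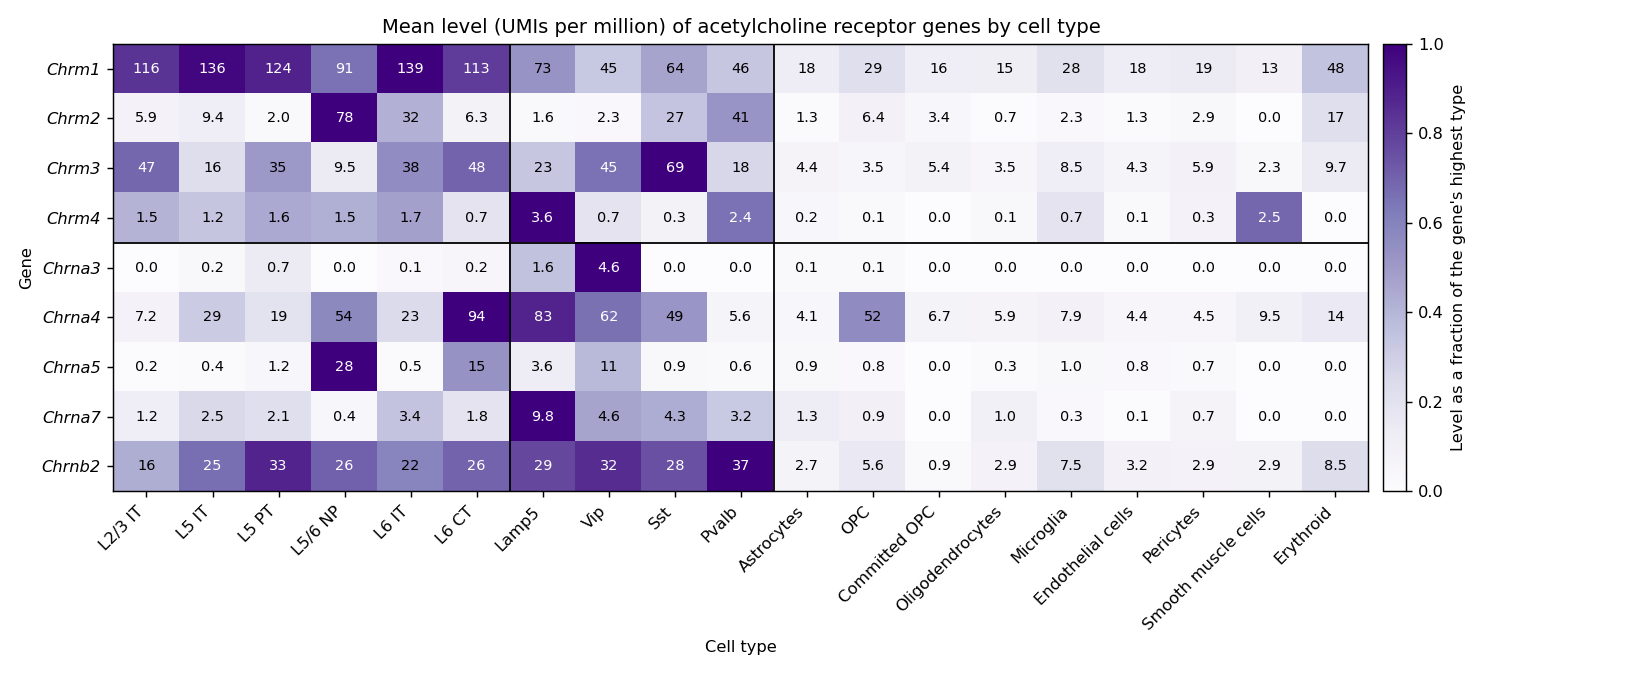
Mean level in CPM over libraries for the 9 receptor genes (rows) in 19 cell types (columns; OPC, oligodendrocyte precursors), with the colour scaled to the highest type of each gene. Lines divide muscarinic from nicotinic genes and excitatory, inhibitory and non-neuronal types. The darkest type of a gene is L6 IT for Chrm1 (139), L5/6 NP for Chrm2 (78) and Chrna5 (28), Sst for Chrm3 (69) and L6 CT for Chrna4 (94), and Chrna4 in OPC (52) is the highest value outside neurons.

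Chrm1, which encodes the M1 receptor of pyramidal neurons, led in L6 IT cells. Its level there was 84.6 CPM in the lowest library, 121 in the median and 196 in the highest, and the mean was 139 ± 44.4 CPM (n = 10). L5 IT cells (136 ± 44.1 CPM, n = 10), L5 PT cells (124 ± 38.5, n = 10), L2/3 IT cells (116 ± 45.3, n = 10) and L6 CT cells (113 ± 37.8, n = 8) followed, and these ranges overlapped widely. L5/6 NP cells were the lowest excitatory type at 90.8 ± 44.0 CPM (n = 8) and lay below L6 IT cells in 8 of 8 libraries. The SDs carried the difference between the library sets: in L6 IT cells Chrm1 was at 106 CPM in replicates 1 to 3 and 188 CPM in replicates 4 and 5. The interneuron types lay lower, from 45.5 ± 21.3 CPM in Vip cells (n = 8) to 73.2 ± 33.6 CPM in Lamp5 cells (n = 4). Erythroid barcodes, which should lack the gene, were at 48.3 ± 43.3 CPM (n = 5), above the means of Pvalb and Vip cells, and the part of free RNA in the interneuron levels was not tested. After each cell was thinned to 1000 UMIs, 12.1% ± 5.14 of L6 IT cells and 4.30% ± 4.00 of Vip cells held a Chrm1 UMI, against 1.71% ± 1.302 of astrocytes. Without thinning the shares were 46.9%, 12.2% and 3.00%.

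Chrm3, the other gene of a Gq-coupled receptor, had its highest level in Sst interneurons, with 44.6 CPM in the lowest, 64.4 in the median and 95.7 in the highest of 8 libraries (68.8 ± 21.2 CPM). Among the excitatory types it was near equal in L6 CT cells (47.9 ± 13 CPM, n = 8) and L2/3 IT cells (47.2 ± 16.5, n = 10). L5 IT cells (15.6 ± 9.24 CPM, n = 10) and L5/6 NP cells (9.46 ± 10.7, n = 8) were low and lay below Sst cells in every library that held both types. L2/3 IT neurons thus had more Chrm3 than L5 IT neurons on average, while their mean of Chrm1 was the lower one. Among interneurons Vip cells (44.98 ± 20.5 CPM, n = 8) lay near the upper excitatory types, and Pvalb cells (18.0 ± 8.90, n = 6) were low. Within L6 IT cells the level was uneven, at 93.8 CPM pooled over libraries in a group of 312 cells led by Rxfp1 and Oprk1 and at 39.5 and 35.9 CPM in the other groups. The Sst groups lay between 10.2 and 80.9 CPM pooled, so the leading type did not hold the leading group.

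Chrm2, whose Gi-coupled product is known as an inhibitory autoreceptor on axon terminals and also from interneurons, was highest in L5/6 NP cells. Its level there ran from 33.4 CPM in the lowest library over a median of 79.2 to 124 CPM in the highest (77.5 ± 31.5 CPM, n = 8), above L6 IT cells in 8 of 8 libraries. The order held in both sets, with 51.3 CPM in NP and 22.2 CPM in L6 IT cells in replicates 1 to 3, and 104 and 47.5 CPM in replicates 4 and 5. Pvalb cells followed at 40.5 ± 21.7 CPM (n = 6), then L6 IT cells at 32.4 ± 15.6 CPM (n = 10) and Sst cells at 26.6 ± 11.5 CPM (n = 8). L5 PT cells, which neighbour the NP cells in layer 5, had 2.00 ± 2.59 CPM (n = 10) and no UMI in 5 libraries. Within Sst cells the level was uneven: 28 of their 66 UMIs came from a group of 24 cells led by Nos1 and Chodl, the pattern of long-range GABA neurons, at 286 CPM pooled over libraries. The remaining Sst groups lay between 2.80 and 37.4 CPM pooled. This group was too small for a value per library and is a description.

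Chrm4 was rare. Its 106 UMIs in excitatory neurons made 1.88 CPM pooled (exact Poisson 95% interval 1.54 to 2.28, for counting error only), and 3 of 10 libraries held none. Every type mean was 3.62 CPM or lower. Nearly all of it came from replicates 4 and 5, so its order over types cannot be read.

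**Figure D3:**
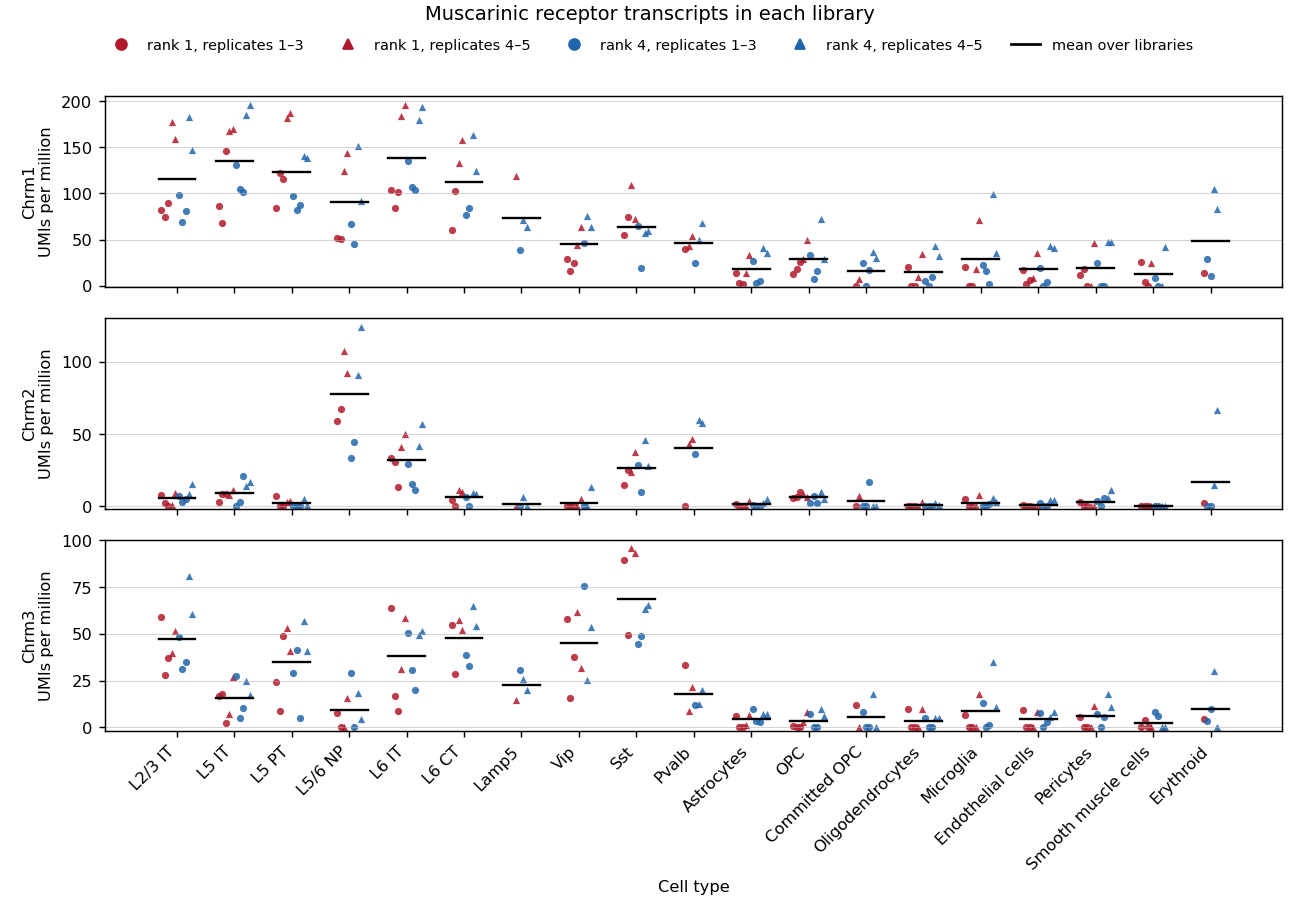
Levels of Chrm1, Chrm2 and Chrm3 in CPM (vertical axes) by cell type, 1 point per library with at least 20 cells of the type. Red is rank 1 and blue rank 4, circles are replicates 1 to 3 and triangles replicates 4 and 5, and bars are means. For Chrm1 the triangles lie above the circles in the excitatory types, and for Chrm2 the L5/6 NP cells stand highest.

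Among the nicotinic genes, Chrna4 encodes the main agonist-binding subunit of cortical channels. It led in L6 CT cells, at 76.7 CPM in the lowest, 88.9 in the median and 126 in the highest of 8 libraries (93.9 ± 17.9 CPM). It was above L6 IT, L5 IT, L5 PT and L2/3 IT cells in 8 of 8 libraries each, and L2/3 IT cells had 7.23 ± 6.91 CPM (n = 10). In L6 CT cells the library sets lay close together, at 92.2 CPM in replicates 1 to 3 and 95.6 CPM in replicates 4 and 5. L5/6 NP cells were at 53.7 ± 31.3 CPM (n = 8) with a wide range, from 0 to 93.6 CPM. Among interneurons Lamp5 cells had 82.9 ± 41.2 CPM (n = 4), Vip cells 62.0 ± 30.5 (n = 8) and Sst cells 48.5 ± 11.3 (n = 8). Pvalb cells stood below them, at 5.56 ± 6.12 CPM (n = 6), with 10 UMIs in all. After thinning to 1000 UMIs, 9.36% ± 1.77 of L6 CT cells held a Chrna4 UMI, against 0.374% ± 0.405 of astrocytes, and without thinning 29.0% of L6 CT cells did.

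Chrna5, the gene of the accessory subunit, was restricted further. Its level in L5/6 NP cells was 3.96, 0, 45.1 and 54.1 CPM in rank 1 replicates 1, 2, 4 and 5, and 25.0, 22.4, 24.2 and 46.0 CPM in rank 4 replicates 1, 3, 4 and 5. The lowest pair were rank 1 libraries of the older version, on 1 and 0 UMIs. In L6 CT cells it ran from 0 over a median of 14.3 to 28.0 CPM (14.7 ± 9.77 CPM, n = 8), on 289 of its 456 UMIs in named cells. Vip cells had 10.6 ± 11.7 CPM (n = 8) on 13 UMIs, and the other excitatory types had means of 1.17 CPM or lower. In L6 CT cells the mean was 8.32 CPM in replicates 1 to 3 and 21.0 CPM in replicates 4 and 5. L5/6 NP cells had 12.8 and 42.4 CPM in the same sets, so the mean in NP cells was the higher one in both. Among excitatory types L6 CT and L5/6 NP cells had the highest means of both Chrna4 and Chrna5, in opposite order. Within L6 CT cells thinned to 1000 UMIs, a Chrna5 UMI was found in 1.38% of the 363 cells with a Chrna4 UMI and in 1.90% of those without, so the depth did not show pairing cell by cell.

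Chrnb2, the gene of the partner subunit, had no leading type. Among neuron types its means ran from 16 ± 5.37 CPM in L2/3 IT cells (n = 10) over 25.9 ± 6.50 in L6 CT cells (n = 8) and 32.8 ± 11.6 in L5 PT cells (n = 10) to 37.1 ± 20.4 CPM in Pvalb cells (n = 6). Pvalb cells therefore held counts of Chrnb2, which may include reads of the overlapping gene Adar, while Chrna4 was near 0 in them. Chrna7 had its highest mean in Lamp5 cells, at 9.81 ± 9.94 CPM (n = 4) on 7 UMIs, with 4.58 ± 5.53 CPM in Vip cells (n = 8) on 8 UMIs. In L6 IT cells it was at 3.39 ± 4.01 CPM (n = 10) on 53 UMIs. Chrna3 gave 24 UMIs in all kept cells, 6 of them in Vip cells (4.58 ± 8.46 CPM, n = 8, with no UMI in 4 libraries) and 13 in excitatory neurons. At these counts no order of types could be read for Chrna3 or Chrna7.

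**Figure D4:**
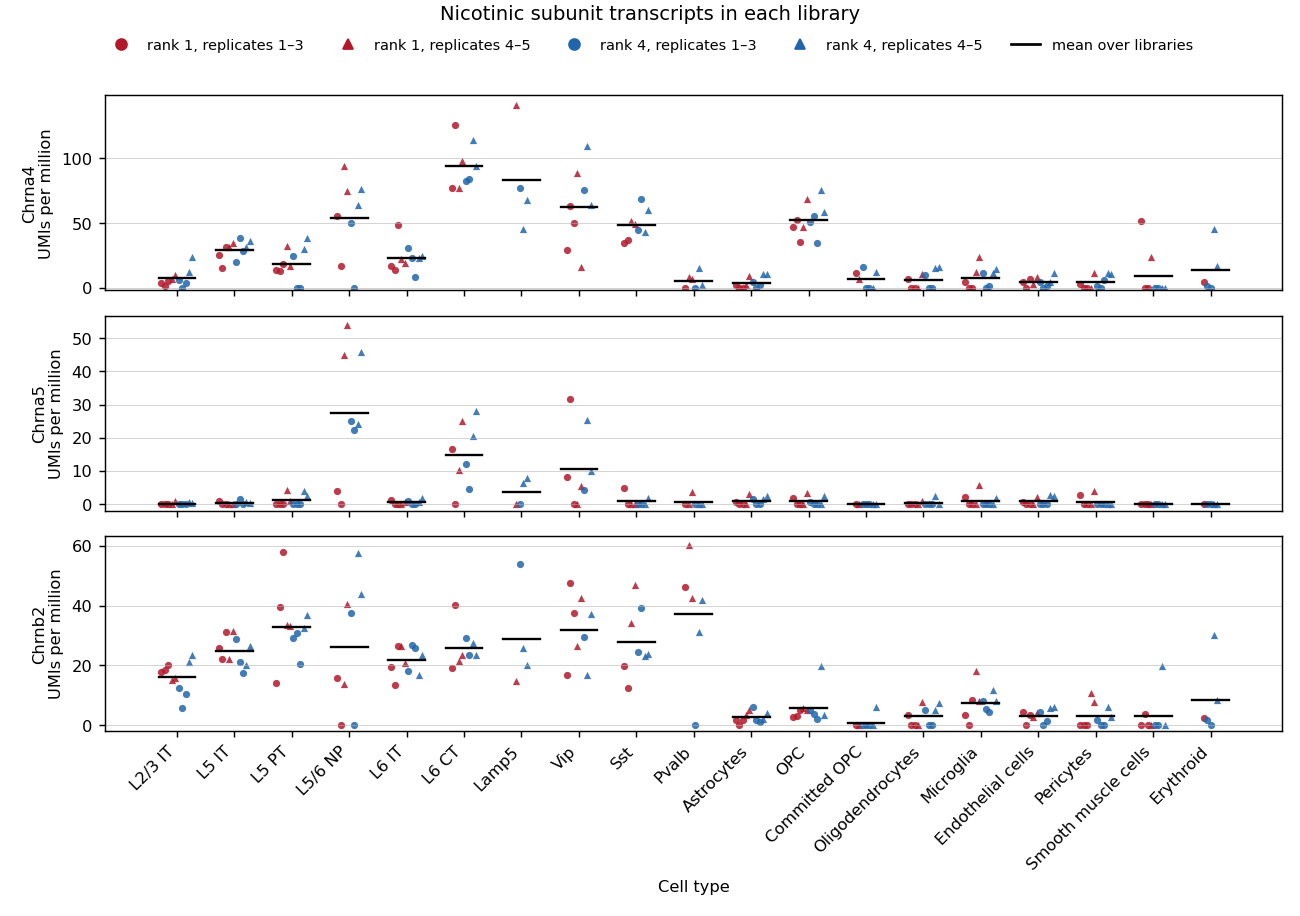
Levels of Chrna4, Chrna5 and Chrnb2 in CPM (vertical axes) by cell type, 1 point per library with at least 20 cells of the type, with ranks, library sets and means drawn as colours, shapes and bars. Chrna4 is high in L6 CT cells and in OPC in every library, Chrna5 is near 0 outside L5/6 NP, L6 CT, Lamp5 and Vip cells, and Chrnb2 is spread over the neuron types.

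Oligodendrocyte precursors, the dividing glia that make myelinating cells, held Chrna4 transcripts at a level above that of most excitatory neurons. The value was 34.7 CPM in the lowest library, 51.6 in the median and 75.4 in the highest (52.4 ± 12.9 CPM, n = 10). It exceeded the value of all excitatory neurons in 10 of 10 libraries, of astrocytes in 10 of 10 and of mature oligodendrocytes in 10 of 10, and lay below L6 CT cells in 8 of 8. The committed precursors that follow in the lineage were at 6.74 ± 6.85 CPM (n = 7) and lower in 7 of 7 libraries. Droplets also catch free RNA, so the level was set beside that of 10 transcripts that only neurons make. In the precursors those reached between 14.7% and 34.9% of their excitatory level (median 19.0%), while Chrna4 reached 129% on 326 UMIs. In replicates 1 to 3 alone Chrna4 was at 187% against at most 27.3% for the neuronal transcripts, and in replicates 4 and 5 at 126% against at most 44.4%. The partner gene Chrnb2 stayed at 20.4% and Chrna5 at 18.5% over all libraries, inside the range of the neuronal transcripts. In replicates 1 to 3 alone Chrna5 was at 30.6% on 3 UMIs, above the 27.3% of the highest neuronal transcript. Chrm2 was at 30.05% over all libraries and at 43.7% in replicates 1 to 3 alone, on 16 UMIs. After thinning to 1000 UMIs, 4.64% ± 1.66 of the precursors held a Chrna4 UMI, against 0.374% ± 0.405 of astrocytes, at median depths of 1628 and 1503 UMIs.

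For the other glia and the vessels, receptor UMIs were mostly within the range of the neuronal transcripts or below it. In astrocytes the neuronal transcripts were at 13.2% to 30.9% of their excitatory level and Chrm1 at 15.8%, so its 17.5 ± 15 CPM (n = 10) lay inside that range. How much of it was free RNA was not tested. Chrna7 was above the range, at 41.4% in astrocytes on 20 UMIs and 44.4% in the precursors on 8 UMIs. By library set it was at 65.7% and 55.8% in astrocytes and at 83.3% and 61.1% in the precursors, on 2 to 16 UMIs each. The mean of Chrna7 was 3.17 ± 4.26 CPM in inhibitory and 1.95 ± 1.96 CPM in excitatory neurons, and free RNA of inhibitory neurons is not part of this comparison. Chrm2 exceeded the range of the neuronal transcripts in haemoglobin-rich erythroid barcodes, at 40.0% on 10 UMIs. The remaining excesses in these cells, with all libraries pooled, rested on 1 UMI each.

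Excitatory and inhibitory neurons of the same library were compared with a two-sided exact permutation test that changes the signs of the 10 paired differences. Chrm1 was higher in excitatory neurons in 10 of 10 libraries, at 118 ± 41.4 against 48.9 ± 22.8 CPM, a difference of 69.1 ± 24.6 CPM (SD). Chrnb2 was lower in excitatory neurons in 10 of 10 libraries, at 21.97 ± 4.70 against 33.8 ± 8.81 CPM, a difference of -11.8 ± 5.64 CPM. Both gave p = 0.00195, the smallest this exact test can give with 10 pairs, and 0.00879 after Benjamini-Hochberg adjustment over the 9 genes. The counts of Chrnb2 may include reads of the overlapping gene Adar, which was not tested. Within replicates 1 to 3 the differences were 53.9 CPM for Chrm1 and -12.6 CPM for Chrnb2, and within replicates 4 and 5 they were 92.0 and -10.6 CPM. Neither gene was past the adjusted threshold in a set (adjusted exact p = 0.0938 and 0.225 for both). With 4 libraries this test cannot give a p under 0.05, so no gene could pass there. With 6 libraries its smallest p left little room after adjustment. The splits by library set were chosen after seeing the data. With a stricter filter on cells (at least 1000 genes and at most 10% mitochondrial UMIs) the difference of Chrnb2 was -9.29 CPM and no longer passed (adjusted exact p = 0.0527). The other 7 genes did not pass: Chrna3 came next, at 0.178 ± 0.213 against 2.67 ± 3.80 CPM (exact p = 0.0371, adjusted 0.111). For Chrna4 the difference was -7.25 ± 14.6 CPM, and for Chrm2 and Chrm3 it was -2.12 ± 8.66 and -3.62 ± 11.5 CPM. The sign for Chrna4 turned with the library set, from -16.0 CPM in replicates 1 to 3 to 5.89 CPM in replicates 4 and 5, and that for Chrm2 was 2.00 CPM in replicates 1 to 3 and 2.86 CPM with the stricter filter. A p that misses the threshold does not show that the classes were alike.

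Types next to each other in the order of a gene's level were compared in the libraries that held both. Of 162 neighbouring pairs over the 9 genes, 7 had an unadjusted p under 0.05 in the same exact test and 0 passed after adjustment (smallest adjusted p 0.920). Those 7 included the step from L5/6 NP to Pvalb cells for Chrm2 (difference 46.0 ± 22.6 CPM, higher in 6 of 6 libraries, exact p = 0.0312), from Sst to L6 CT cells for Chrm3 (20.9 ± 17.1 CPM, 6 of 7, exact p = 0.0312) and from Sst to L5 IT cells for Chrna4 (20.7 ± 9.81 CPM, 8 of 8, exact p = 0.00781). These pairs were chosen as nearest in mean, and the smallest p the test could give ran from 0.00195 to 0.25. In 36 pairs it could not go under 0.05, and in 15 both means were 0, so those pairs could not pass. The orders above are descriptions of means.

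The genes most like each receptor gene over the 19 types were found by the Pearson correlation of log2(mean CPM + 1). For Chrm1 they were Svop, Ppfia3 and Camkv (0.973 to 0.963), all found across excitatory neurons, and for Chrm3 they were Slc7a14, Thy1 and Stxbp5 (0.924 to 0.912). Chrna4 went with Rph3a, Ndn and Hs6st2 (0.834 to 0.816), Chrna5 with Cyp2s1, Areg and Lrrc55 (0.848 to 0.822) and Chrm2 with Insl5, Plcxd3 and Slc16a14 (0.808 to 0.790). For Chrna7 they were 4930453C13Rik, Purg and Gm11457 (0.905 to 0.891), although its own counts gave no readable order of types. Several of these genes were as sparse, with 44 UMIs of Gm11457, 63 of 4930453C13Rik, 89 of Areg, 94 of Cyp2s1 and 130 of Insl5, so their likeness rests on few counts. Chrnb2 was most like Ksr2, Adar and Rab6b (0.969 to 0.958). Adar is the gene that overlaps Chrnb2 on the other strand, so its place here may be due to shared reads, which was not tested.

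Rank was then compared within each class and subtype by edgeR's quasi-likelihood test on UMIs summed per library, with the library set as covariate and Benjamini-Hochberg adjustment over all genes tested in that class. No receptor gene passed the test between ranks in the types where it could be tested. Of the 9 genes, 6 passed the filter on low counts somewhere, giving 47 tests (15 in classes and 32 in neuron subtypes). Chrm4, Chrna3 and Chrna7 passed it nowhere. None of the 47 had an adjusted p under 0.05, and in the same fits this held for all genes: 0% of 62008 tests in classes and 0% of 63276 in subtypes were called. With an unadjusted p under 0.05 there were 0 receptor tests in classes, where the share of all tests was 2.29%, and 2 of 32 in subtypes, where it was 4.36%. The 47 log2 fold changes (rank 1 against rank 4) ran from -0.86 to 0.71 with a median of -0.02, and 22 were above 0 and 25 below. The self-test on simulated counts recovered 75.8% of genes changed by 1 on the log2 scale among 12203 genes in excitatory neurons. Among 8807 genes in inhibitory neurons it recovered 55.8%. The changed genes were drawn at random from all tested genes, with no difference between library sets. Recovery for sparse receptor genes or in subtypes was not simulated, so changes of this size could go unseen as well as smaller ones.

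In excitatory neurons the rank 1 libraries, in the order of replicates 1 to 5, had Chrm1 levels of 75.3, 72.4, 102, 164 and 169 CPM. The rank 4 libraries had 103, 85.8, 84.3, 171 and 154 CPM. The high values were replicates 4 and 5 in both ranks, and the ranks overlapped. The log2 fold change was -0.08 (SE 0.13, adjusted p = 1.00 by edgeR). The same class gave -0.00 for Chrm2 (SE 0.20), -0.09 for Chrm3 (SE 0.26), 0.03 for Chrna4 (SE 0.25), 0.22 for Chrna5 (SE 0.55) and 0.10 for Chrnb2 (SE 0.17), each within its SE or close to it. In L6 CT cells, the subtype with the most UMIs of 5 of the genes, the log2 fold changes were -0.02 for Chrm1, 0.03 for Chrm3, -0.10 for Chrna4, -0.15 for Chrna5 and -0.18 for Chrnb2, with SEs from 0.17 to 0.32. Chrna4 there was at 94.3 ± 23.1 CPM in rank 1 and 93.6 ± 14.6 CPM in rank 4 (n = 4 each). Chrm2 in L6 IT cells, its largest source of UMIs, gave 0.05 (SE 0.24).

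The lowest p-values of a receptor gene were those of Chrm3 in Sst cells and Chrm1 in L5 PT cells. Chrm3 in Sst cells was at 89.4, 49.6, 95.7 and 93.5 CPM in rank 1 replicates 1, 2, 4 and 5 and at 44.6, 49.0, 63.1 and 65.7 CPM in rank 4 replicates 1, 3, 4 and 5. Rank 1 replicate 2, with 4 UMIs, lay among the rank 4 values and the other 3 rank 1 libraries above all of them. The log2 fold change was 0.63 (SE 0.27, adjusted p = 0.992 by edgeR), higher in rank 1 in 3 of 3 pairs. In the same fit 1.94% of all genes were higher in rank 1 at an unadjusted p under 0.05. For Chrm1 in L5 PT cells the rank 1 libraries, in the same order, had 83.9, 122, 116, 182 and 187 CPM. The rank 4 libraries had 96.9, 82.5, 87.1, 141 and 138 CPM. Within each library set the ranks overlapped in replicates 1 to 3 and not in replicates 4 and 5, where each rank had 2 libraries. How many of all genes were apart in that set was not counted. The log2 fold change was 0.35 (SE 0.16, adjusted p = 1.00 by edgeR), higher in rank 1 in 4 of 5 pairs, beside 1.48% of all genes higher at that threshold. Neither passed, and L5 PT cells are the layer 5 neurons that project out of the cortex.

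**Figure D5:**
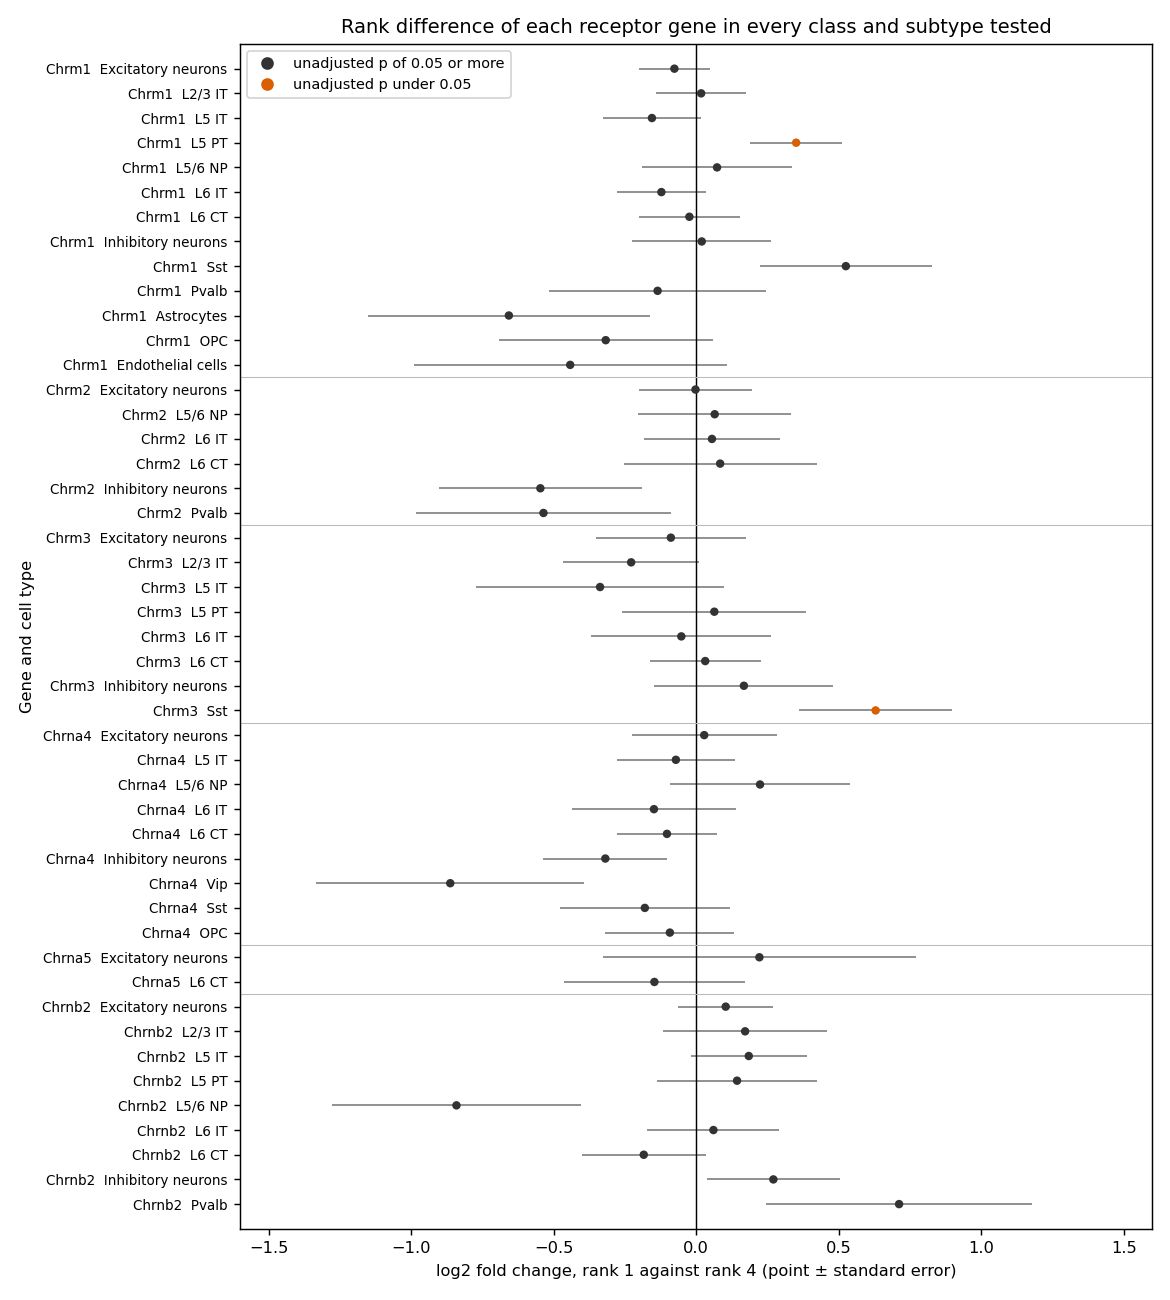
Log2 fold change of rank 1 against rank 4 (horizontal axis, point ± standard error) for the 47 tests of a receptor gene in a class or subtype. Orange points, Chrm1 in L5 PT and Chrm3 in Sst cells, have an unadjusted p under 0.05, no test passed after adjustment, and most other bars cross 0.

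The labels name no pairing of libraries. Libraries with the same replicate number deviated together in part, so the fit was repeated with the replicate number as a block. With the library set removed, a library of another number correlated more highly in 5 of 10 comparisons, so the pairs are an assumption. The blocked fit called 0.297% of all tests in classes and 0.405% in subtypes, and 0 of the 47 receptor tests (smallest adjusted p 0.114). At an unadjusted p under 0.05 it held 1 of 15 receptor tests in classes and 4 of 32 in subtypes, where the shares of all tests were 10.3% and 9.26%. The one in classes was Chrm1 in astrocytes, at a log2 fold change of -0.73 and lower in rank 1 in 5 of 5 pairs (adjusted p = 0.114 by edgeR), where the level lay within the range of the neuronal transcripts. In subtypes it held Chrm3 in Sst cells (0.67) and Chrm1 in L5 PT cells (0.37), named above, and also Chrna4 in Vip cells and Chrnb2 in L5/6 NP cells. Chrna4 in Vip cells was at 49.4 ± 28.5 CPM in rank 1 (n = 5) and 82.98 ± 23.7 CPM in rank 4 (n = 3), a log2 fold change of -1.08 with the block (adjusted p = 0.379 by edgeR), lower in rank 1 in 3 of 3 pairs. Chrnb2 in L5/6 NP cells was at 17.6 ± 16.9 and 34.7 ± 24.6 CPM (n = 4 each), a log2 fold change of -0.84 with the block (adjusted p = 0.661 by edgeR), lower in 3 of 3 pairs. Chrnb2 in Pvalb cells was the one gene and type whose ranks did not overlap, at 46.4, 60.3 and 42.7 CPM in rank 1 replicates 1, 4 and 5 and 0, 31.3 and 41.97 CPM in rank 4 replicates 3, 4 and 5. Its log2 fold change was 0.71 without the block (adjusted p = 0.767 by edgeR), where 0% of all subtype tests were called, and 0.46 with the block (adjusted p = 0.870 by edgeR), on 2 pairs. The nearest values of the ranks were 42.7 and 41.97 CPM. How many of all genes had ranks apart in Pvalb cells was not counted, so the separation is a description. In all inhibitory neurons Chrna4 was lower in rank 1 in 5 of 5 pairs (35.1 ± 6.80 against 45.5 ± 5.64 CPM) and Chrm3 higher in 5 of 5 (40.5 ± 17.5 against 33.99 ± 19.0 CPM), and neither passed with the block (adjusted p = 0.831 and 0.884 by edgeR). Whether the rank difference of a gene was unlike in excitatory and inhibitory neurons was tested by an exact permutation test over all ways of dividing the libraries, which keeps neither the library sets nor the replicate numbers together. No gene passed, with the smallest p for Chrnb2 (a difference of -0.16 on the log2(CPM + 10) scale, exact p = 0.143, adjusted 0.843).

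Other genes of the cholinergic system, 42 in the list, placed the receptors beside their transmitter. Slc5a7, the choline transporter of cholinergic terminals, had 104 of its 213 UMIs in Vip cells, and Slc18a3, the vesicular acetylcholine transporter, 22 of 25. Chat, the enzyme that makes acetylcholine, had 6 of 8 UMIs there. Chrna2 had 14 of 19 UMIs in Sst cells. Chrnb1, the subunit with the most UMIs among the 12 other receptor genes, had 67 of 90 in endothelial cells. The nicotinic modulators Lypd6 and Lypd6b were highest in Sst cells and Lynx1 in Pvalb cells, while Lypd1 was highest in L5/6 NP cells, at 861 CPM pooled.

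Between ranks, 26 of the 42 genes were tested in classes and 25 in subtypes. None of 135 tests in classes and 188 in subtypes had an adjusted p under 0.05, and 4 and 8 had an unadjusted p under 0.05, of which 3 and 8 were lower in rank 1. Over all genes 1.11% of tests in classes and 2.52% in subtypes were lower at that threshold, and 2.29% and 4.36% lay under it in either direction. The 5 lowest were Rgs4 in L5 IT, L2/3 IT and Sst cells, Kcnq3 in L6 CT cells and Lypd1 in L5 IT cells. Rgs4 also lay under 0.05, lower in rank 1, in L6 CT and L6 IT cells and in all excitatory and all inhibitory neurons. Most of the tests lower in rank 1 were thus of this gene, and the neuron classes hold the same cells as the subtypes. Rgs4, which shortens signalling of Gq and Gi proteins, was at 203 ± 65.1 CPM in rank 1 and 322 ± 62.8 CPM in rank 4 in L5 IT cells (n = 5 each), lower in 5 of 5 pairs. The log2 fold change was -0.64 (SE 0.20, adjusted p = 0.955 by edgeR), and -0.68 with the replicate block (adjusted p = 0.00139). The calls of Rgs4 rest on the block, since none passed without it. With the block 4 of 135 tests of the list in classes and 2 of 188 in subtypes were called, where the shares of all genes were 0.297% and 0.405%. The block also called Rgs4 lower in rank 1 in L6 IT cells (-0.55, adjusted p = 0.0215), in all excitatory neurons (-0.47, adjusted p = 0.0270), in astrocytes (-0.79, adjusted p = 0.0245) and in endothelial cells (-0.93, adjusted p = 0.0139). With the block Rgs4 did not pass in L2/3 IT cells (adjusted p = 0.0685 by edgeR), L6 CT cells (0.189), all inhibitory neurons (0.313) or Sst cells (0.496), and in Pvalb cells its log2 fold change was 0.07. Nor did it pass in L5 PT (adjusted p = 0.318 by edgeR) or L5/6 NP cells (0.616), oligodendrocyte precursors (0.516), microglia (0.831), oligodendrocytes (0.921) or smooth muscle cells (0.961). Rgs4 was highest in pericytes (1019 CPM pooled), where its log2 fold change was -0.03, and the part of free RNA in the glial and vessel values was not tested.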

How the data were processed

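Single-cell RNA was counted in 10 libraries, 5 per rank. The deposited matrices hold raw UMI counts per gene and barcode. The file headers name software version 3.1.0 for replicates 1 to 3 and 4.0.0 for replicates 4 and 5, whereas the submitters' processing notes name Cell Ranger 4.0.0 for all, and mm10 as the build. Replicates are pools of 2 to 3 mice per the labels' protocols, and p-values measure the spread between these pools. No column of other samples was found (0).

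The 30406 genes shared by all libraries were used, with 99.4% to 99.9% of a library's UMIs. Barcodes with at least 500 genes and at most 15% mitochondrial UMIs were kept after removal of 3095 doublets called by Scrublet, whose automatic threshold failed in replicate 1 of both ranks, where the median threshold of the other libraries was used. Cells were clustered without the receptor genes with scanpy 1.11.5 (2000 variable genes, 30 components, 15 neighbours, Leiden resolution 1, igraph 0.11.9) and named from marker genes. Clusters could stay unnamed, and names are rebuilt here. Levels are CPM within a type in libraries with at least 20 cells. Cells were thinned to 1000 UMIs for shares. Intervals are exact at 95% and cover counting error only.

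Rank was tested on summed counts with edgeR 4.0.16 in R 4.3.3 (quasi-likelihood, TMM scaling, filterByExpr, library set as covariate, at least 3 libraries per rank, Benjamini-Hochberg adjustment, threshold 0.05), and DESeq2 1.42.0 was an alternative. The fit was tested on simulated data. Exact permutation tests were two-sided. Libraries with the same replicate number correlated between 0.748 and 0.931 in their deviations from the rank mean, in excitatory neurons and astrocytes, so the numbers were taken to pair them. In 2 of 10 comparisons a rank 4 library of another number correlated more highly. With the library set removed too, the same-number correlation ran from 0.197 to 0.858, and another number was higher in 5 of 10.

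All 9 genes are described. Rank values are named for the class and subtype with the most UMIs of a gene and wherever the unadjusted p was under 0.05, with or without the replicate block. The 3 most similar genes are named for genes with at least 200 UMIs, and of the other cholinergic genes the 5 lowest p-values and the receptor subunit with the most UMIs. Genes, lists and tests were chosen with earlier results of these data known. Counts of transporters and enzymes in Vip cells, the Nos1 and Chodl group, the Rxfp1 and Oprk1 group, and the rank values of Chrnb2 in Pvalb cells and of Chrna4 and Chrm3 in all inhibitory neurons were singled out after their values were seen. Of the calls of other cholinergic genes with the replicate block, 1 is not reported here.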

Additional observations from a re-analysis of the deposited data

Results flagged for a closer look

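Of 28 groups of 4 or 5 libraries examined for a value far from the others, 1 held such a value, and chance gives about 1 in 20. Chrm3 in Sst cells was at 49.6 CPM in rank 1 replicate 2, where the other 3 rank 1 libraries lay between 89.4 and 95.7 CPM. Its gap to the nearest library was 0.863 of the range of the group. The value rests on 4 UMIs in 24 cells.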

How the results depend on the processing

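No receptor gene was called between ranks in any alternative, over 1102 tests (smallest adjusted p 0.114, with the replicate block). The mean level of each gene in the type where it was highest moved by less than its SD in all 52 comparisons. Levels in the other types were not compared in this way. Signs of rank log2 fold changes near 0 turned in 51 of 285 comparisons, none of them past the threshold. In excitatory neurons Chrm1 was at 0.049 within replicates 4 to 5, Chrm3 at 0.12 within replicates 1 to 3 and Chrnb2 at -0.043 within replicates 4 to 5. Chrm2 there was at 0.0048 with DESeq2, 0.22 within replicates 1 to 3, 0.12 with the stricter cell filter, 0.021 with the mitochondrial limit at 30%, 0.0030 at resolution 0.5 and 0.030 at resolution 2. Chrna4 there was at -0.0060 without the version covariate, -0.010 with the replicate block, -0.11 within replicates 4 to 5, -0.058 with the stricter filter, -0.0054 with the 30% limit and -0.015 at resolution 2. In L6 CT cells Chrm1 was at 0.00014 with the replicate block, 0.044 within replicates 4 to 5 and 0.067 at resolution 2, Chrm3 at -0.13 within replicates 4 to 5 and Chrna4 at 0.20 within replicates 1 to 3. Chrm2 in L6 IT cells was at -0.10 within replicates 4 to 5 and -0.039 with the stricter filter. Leaving out 1 library at a time gave, in excitatory neurons, -0.14 to 0.16 for Chrm2, -0.36 to 0.074 for Chrm3, -0.14 to 0.19 for Chrna4, -0.29 to 0.55 for Chrna5 and -0.017 to 0.16 for Chrnb2. In L6 CT cells it gave -0.16 to 0.085 for Chrm1, -0.16 to 0.18 for Chrm3, -0.17 to 0.025 for Chrna4 and -0.53 to 0.12 for Chrna5, and in L6 IT cells -0.079 to 0.24 for Chrm2. For the difference of the rank effect between neuron classes it gave -0.035 to 0.027 for Chrm4, -0.23 to 0.12 for Chrna3, -0.10 to 0.31 for Chrna5 and -0.14 to 0.043 for Chrna7, and a pseudocount of 1 put Chrm4 at 0.021. Between excitatory and inhibitory neurons the stricter filter gave 2.86 CPM for Chrm2 and -9.29 CPM for Chrnb2 (adjusted exact p = 0.0527). Within replicates 1 to 3 the differences were 53.9 CPM for Chrm1, 2.00 for Chrm2, -1.18 for Chrna5, 0.137 for Chrna7 and -12.6 for Chrnb2, and within replicates 4 to 5 they were 92.0 for Chrm1, 5.89 for Chrna4 and -10.6 for Chrnb2. The smallest p of these exact tests is 0.0312 with 6 libraries and 0.125 with 4, before adjustment. The cause was not tested for the other values. Shares of cells with a UMI moved in 17 of 18 comparisons with the depth they were thinned to. The replicate block changed no call of a receptor gene. Sparse counts of Chrm4, Chrna3 and Chrna7 limit what could be seen for these genes.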
